A study of Homo sapiens with 4 samples.

Results

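PTGFRN, EEF1A2, NUP210 and AJAP1 are 4 of the 14006 genes with a named probe in arrays of human prostate cancer cells. They were chosen by their measured intensities. PTGFRN, EEF1A2 and NUP210 were lower, and AJAP1 higher, on both arrays labelled low for the laminin-binding glycan than on both arrays labelled high. Each of the 4 genes had 1 probe, so 4 of the table's 37934 probes are described here: 16669180 for PTGFRN (NM_020440), 16921258 for EEF1A2 (NM_001958), 16950932 for NUP210 (NM_024923) and 16658289 for AJAP1 (NM_018836). Since these values selected the genes, their levels and differences are given as a description, with no test.

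The cultures form 2 pairs, PC3-H with PC3-L and LNCaP with LNCaP-AI, and each gave total RNA for 1 array. PC3 comes from a bone metastasis and is androgen-independent, and the PC3-H and PC3-L cells were obtained from it with the antibody IIH6C4, which binds the laminin-binding O-glycan that dystroglycan carries. LNCaP comes from a lymph node metastasis and its characteristics call it androgen-dependent. LNCaP-AI was derived from LNCaP in medium with charcoal-stripped serum, and its free-text description adds medium conditioned by perineural cells. All 4 were grown in RPMI1640, and serum for the other 3 is given as fetal bovine serum. PC3-H and LNCaP carry the high glycan label with low motility and invasion, and PC3-L and LNCaP-AI the low glycan label with high motility and invasion. The free-text descriptions give the PC3 pair the opposite glycan labels, and the titles and source names were followed. No group had a second array, so no difference between cultures has a replicate check.

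PTGFRN is a membrane glycoprotein of the immunoglobulin superfamily. It belongs to the EWI family and binds the tetraspanins CD9 and CD81, which organise receptors and adhesion molecules in the plane of the membrane. EEF1A2 is the isoform of translation elongation factor 1A that adult neurons and muscle use in place of the widespread EEF1A1, and it delivers aminoacyl-tRNA to the ribosome. NUP210 is a nucleoporin that crosses the nuclear membrane, where membrane nucleoporins hold the pore complex that nuclear transport passes through, and it is known for its part in muscle differentiation. AJAP1 is a single-pass membrane protein found at adherens junctions and sorted to the basolateral side of epithelial cells.

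The RefSeq promoter windows (GRCh38.p14) are shown because 3 of the genes moved one way between the labels and the fourth the other way, and a reader may want the letters at their starts. Windows were found for 3 of the 4 genes, PTGFRN, NUP210 and AJAP1, and not for EEF1A2. Each runs 5′ to 3′ from 250 bases before the start site to 50 after it, 300 bases in all. PTGFRN lies at chr1:116909666-116909965 on the plus strand, NUP210 at chr3:13420273-13420572 on the minus strand and AJAP1 at chr1:4654359-4654658 on the plus strand. Capitals mark every match, on either strand, to the GC box core GGGCGG, the E-box letters CACCTG, the AP-1 letters TGANTCA or the TEAD letters GGAATG, and overlapping matches run together.
PTGFRN: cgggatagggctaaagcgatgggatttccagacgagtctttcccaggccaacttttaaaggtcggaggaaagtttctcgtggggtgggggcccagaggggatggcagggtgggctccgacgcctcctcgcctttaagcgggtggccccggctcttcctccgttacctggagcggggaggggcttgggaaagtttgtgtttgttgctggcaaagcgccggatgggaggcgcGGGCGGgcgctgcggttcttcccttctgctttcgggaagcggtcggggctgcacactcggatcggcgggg
NUP210: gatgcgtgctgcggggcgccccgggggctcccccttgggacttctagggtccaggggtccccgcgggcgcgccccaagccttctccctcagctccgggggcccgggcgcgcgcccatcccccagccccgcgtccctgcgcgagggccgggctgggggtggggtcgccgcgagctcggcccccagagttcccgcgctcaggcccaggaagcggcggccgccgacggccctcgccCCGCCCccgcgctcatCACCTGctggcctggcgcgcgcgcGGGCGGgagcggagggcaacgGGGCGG
AJAP1: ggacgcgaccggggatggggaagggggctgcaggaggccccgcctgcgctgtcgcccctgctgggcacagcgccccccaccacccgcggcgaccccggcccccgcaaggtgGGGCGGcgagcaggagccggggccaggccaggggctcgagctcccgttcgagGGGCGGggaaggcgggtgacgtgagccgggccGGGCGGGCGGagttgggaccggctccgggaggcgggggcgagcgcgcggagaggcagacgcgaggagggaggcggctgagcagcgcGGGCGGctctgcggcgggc

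All 3 windows held more CG dinucleotides than the median window, with 25 in PTGFRN, 42 in NUP210 and 40 in AJAP1. The median was 14 over 27305 genes with a window. Of those genes, 68.2%, 94.3% and 92.6% had fewer. The G and C content was 64.0% for PTGFRN, 81.3% for NUP210 and 80.7% for AJAP1, against a median of 58.3%. The letters GGGCGG matched 1 time in PTGFRN, 3 times in NUP210 and 5 times in AJAP1, where 2 matches overlapped. It is a common match, present in 44.6% of windows. CACCTG matched 1 time, in NUP210 across the start site, and is found in 20.6% of windows. TGANTCA, which 7.76% of windows hold, had no match in these windows, and neither had GGAATG, which 14.0% hold. The windows of PTGFRN and NUP210, which were lower, and of AJAP1, which was higher, thus all had CG counts above the median. All 3 held GC box letters, and no searched motif was in both PTGFRN and NUP210 but absent from AJAP1. For EEF1A2, the other lower gene, no window was read.

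The distributions of the 4 arrays were nearly alike, with median intensities between 39.8 and 41.2, and the intensities ran from 17.6 to 11188. The 40th percentile of all probes, used below as a filter level, lay between 33.6 and 34.8. The fourth array, labelled LNCaP-AI, stood apart from its line label. The 5 measured LNCaP markers of 8 listed (KLK3, KLK2, FOLH1, HOXB13 and SPDEF) summed to 4020 for LNCaP and 251 on that array, with 545 and 232 for PC3-H and PC3-L, while the 7 of 8 measured PC3 markers (VIM, CD44, AXL, CXCL8, LCN2, ANXA1 and UCHL1) summed to 306, 3638, 3487 and 4135 in the same order. The similar PC3 marker sums on PC3-H and the fourth array came from different genes. LCN2 was 1881 on PC3-H and 46.0 on the fourth array, and CXCL8 was 302 and 46.9. VIM (104 and 1216), CD44, AXL, ANXA1 and UCHL1 were higher on the fourth array than on PC3-H. The fourth array is called the AI-labelled array here. For the 4 genes, and for other genes named as past 2-fold in the LNCaP pair, the difference is also given with PC3-L in its place. Markers of other cell types were also read: 2 of 6 fibroblast genes were measured, with sums of 67.3 to 76.1 over the 4 arrays, and 4 of 6 endothelial genes, with sums of 179 to 211. The 4 of 6 Schwann and perineurial genes measured summed to 238 and 325 on the high label arrays and 176 and 202 on the low label ones, and ERBB3, also an epithelial gene, was 80.8 and 188 against 38.1 and 40.6. For 3 of 6 leukocyte genes the sums were 406 and 203 against 734 and 653, of which CD68, a lysosomal gene, made up 290, 102, 630 and 553. No probe on these arrays read below 17.6, so a dim marker value does not show that its transcript was present. The part of other cells in the differences below was not tested. In bulk RNA, fewer cells that make a transcript and less transcript per cell cannot be told apart.

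PTGFRN had an intensity of 273 on PC3-H, 29.4 on PC3-L, 270 on LNCaP and 29.4 on the AI-labelled array. The high label arrays were nearly equal, as were the low label ones, and the groups were far apart. Within a label the ratio of the 2 arrays was 1.01 for high and 1.00 for low. The low value was brighter than 30.3% of probes on PC3-L and 29.3% on the AI-labelled array, below the filter level on both (0.873 and 0.852 of it), while the high value exceeded 95.4% of probes on PC3-H and 95.1% on LNCaP. On the log2(intensity + 1) scale the difference was −3.18 in the PC3 pair, against −3.15 in the LNCaP pair, and −3.16 for PC3-L against LNCaP. In linear intensity the ratios were 9.31 and 9.17. As the low values lie in the dim part of the arrays, where a background keeps intensities above 0, these ratios may be understated.

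**Figure D1:**
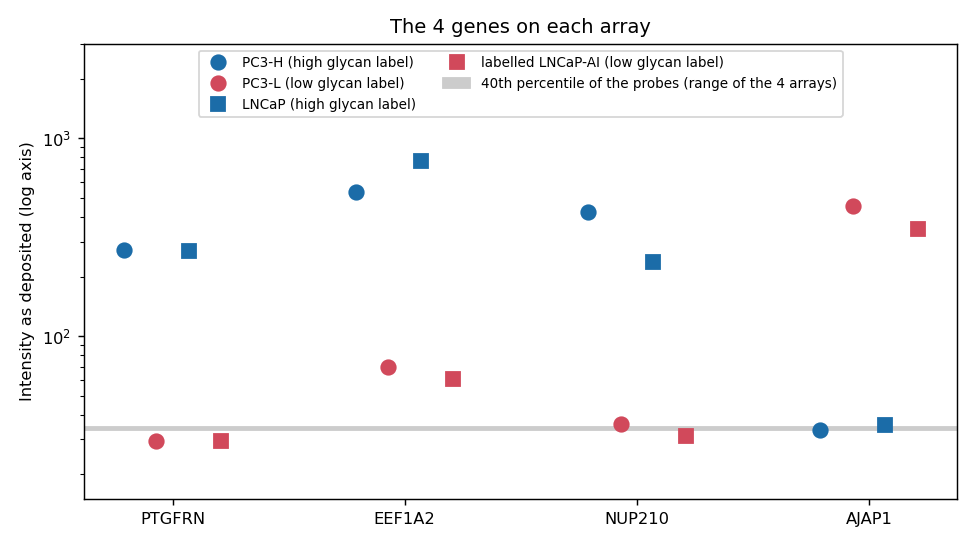
Deposited intensity (log axis) of PTGFRN, EEF1A2, NUP210 and AJAP1 on each array, 1 point per array; circles are PC3 and squares LNCaP cultures, blue the high and red the low glycan label, and the grey band is the 40th percentile of all probes. PTGFRN, EEF1A2 and NUP210 were between 238 and 766 on the high label arrays and between 29.4 and 70.0 on the low label ones, and AJAP1 was 33.3 and 35.3 on high and 452 and 348 on low label arrays.

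EEF1A2 had an intensity of 534 on PC3-H, 70.0 on PC3-L, 766 on LNCaP and 60.6 on the AI-labelled array. LNCaP was highest, 1.44 times PC3-H, and the low label arrays differed by a ratio of 1.15, so the labels did not overlap. The low values remained above the filter level (2.08 and 1.76 times it) and exceeded 72.5% and 67.9% of probes. The log2 difference was −2.91 in the PC3 pair, against −3.64 in the LNCaP pair, and −3.43 with PC3-L in place of the AI-labelled array. The difference of −0.73 between the pairs came mostly from the high label arrays, which were 0.52 apart, against −0.20 for the low label ones (LNCaP culture minus PC3 culture in both).

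NUP210 had an intensity of 423 on PC3-H, 35.9 on PC3-L, 238 on LNCaP and 31.1 on the AI-labelled array. PC3-H was highest, 1.78 times LNCaP, which was the widest ratio within a label for the 4 genes. The low values lay near the filter level, at 1.07 and 0.901 of it, and exceeded 44.1% and 33.2% of probes. The log2 difference was −3.52 in the PC3 pair, against −2.89 in the LNCaP pair, or −2.70 with PC3-L against LNCaP. EEF1A2 thus differed more in the LNCaP pair and NUP210 more in the PC3 pair, by 0.63 on the log2 scale for NUP210; with 1 array per culture, neither of these differences between pairs was tested.

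AJAP1 ran the other way, with an intensity of 33.3 on PC3-H, 452 on PC3-L, 35.3 on LNCaP and 348 on the AI-labelled array. The high label arrays were at the filter level (0.957 and 1.03 of it), and the low label arrays were 13.4 and 10.1 times it. The low label arrays differed by a ratio of 1.30 and the high label ones by 1.06. The log2 difference was 3.72 in the PC3 pair, against 3.27 in the LNCaP pair, and 3.64 for PC3-L against LNCaP. Linear ratios were 13.6 and 9.86, which the dim high label values may understate.

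All 4 genes passed the filter in both pairs, for which either value of a pair suffices. PTGFRN passed only through its high label arrays, as did NUP210 in the LNCaP pair, and AJAP1 passed only through PC3-L in the PC3 pair. These are the arrays on which the choice made them high. In each pair 3 of 4 were past 2-fold lower and 1 past 2-fold higher. The choice of members fixes these directions. The genes were chosen with results of these data known, so their size is not independent of the choice either. Among all genes past the filter 3.76% of 11135 were 2-fold or more lower on PC3-L than on PC3-H and 8.58% higher, and 5.13% of 11136 were lower and 5.45% higher on the AI-labelled array than on LNCaP. Over 11509 genes past the filter on any array, both low label arrays were below both high ones for 20.6% and above them for 20.5%. With a gap of 2-fold or more between the nearer arrays, these shares were 0.843% below and 1.42% above. The gap was −3.15 for PTGFRN, −2.91 for EEF1A2 and −2.70 for NUP210 on the log2 scale, which placed them at 2, 4 and 6 in the order of the lower genes. Around them stood EPCAM (−3.20), CLDN7 (−3.06), SYNGR2 (−2.75) and DSP (−2.68). AJAP1 had a gap of 3.27, behind MMP1 (5.83) and ahead of BMP2 (3.12) among the higher genes. The rule has no threshold of size, but the values are those that chose the genes, so these places are only a description.

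**Figure D2:**
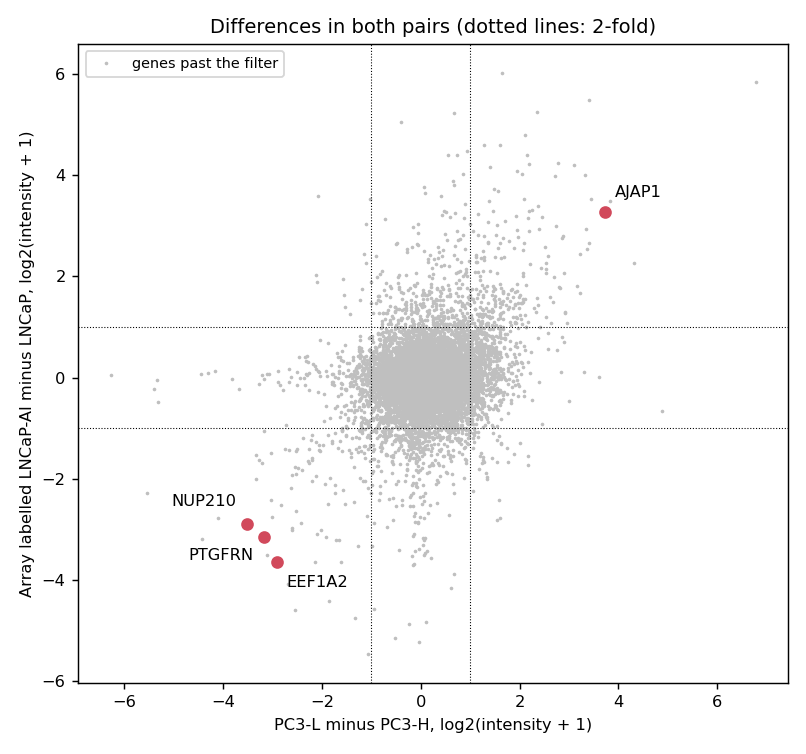
Difference of PC3-L from PC3-H (x axis) against that of the AI-labelled array from LNCaP (y axis), both in log2(intensity + 1), for 11509 genes past the filter on any array (grey points), with the 4 genes in red and dotted lines at 2-fold. PTGFRN, EEF1A2 and NUP210 lie together at the lower left, between −3.52 and −2.91 on the x axis and between −3.64 and −2.89 on the y axis, and AJAP1 lies at the upper right, at 3.72 and 3.27.

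Genes of similar pattern were ranked by the distance between log2 intensities centred per gene over the 4 arrays, where 0 means the same shape and step size. This is a description over 4 arrays, with the genes sharing every array. Nearest to PTGFRN was SYNGR2, a vesicle membrane protein (distance 0.309), at 1084 on PC3-H, 134 on PC3-L, 984 on LNCaP and 145 on the AI-labelled array. Next came the tight junction gene CLDN7 (0.367) and EEF1A2 (0.424). CLDN7 was also nearest to EEF1A2 (0.187), with 355, 40.3, 486 and 41.6 on the arrays in the same order. PTGFRN and the desmosomal gene DSP (0.531) followed, and DSP had 244, 37.2, 583 and 33.3. NUP210 was nearest to PTGFRN (0.592), the actin-bundling gene LCP1 (0.598) and the arginine synthesis gene ASS1 (0.616). ASS1 was 1146 on PC3-H against 65.5 on PC3-L, and 371 on LNCaP against 52.9 on the AI-labelled array. Among the 3 lower genes, EEF1A2 and NUP210 were farthest apart (0.958). AJAP1 was nearest to the ligand gene BMP2 (0.429), which had 44.3, 648, 34.3 and 393. After it came DOCK4, an exchange factor for small GTPases (0.725), and the intermediate filament gene VIM (0.797), which had 104, 896, 65.1 and 1216.

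Tetraspanins lower on the low label array were found in both pairs, among relatives and partners of PTGFRN that went both ways. Of 32 listed EWI proteins and tetraspanins 29 had a named probe and 22 passed the filter in each pair; IGSF8 and IGSF3, the other EWI proteins named here beside CD101, had none. CD101 was dim, between 23.0 and 26.2, and did not pass. In the PC3 pair 3 of 22 were 2-fold or more lower and 2 higher, or 13.6% and 9.09%, beside 3.76% and 8.58% of all genes (median −0.25, against −0.02 for all genes). In the LNCaP pair 5 of 22 were lower and 1 higher, or 22.7% and 4.55%, beside 5.13% and 5.45% of all genes (median −0.10, against 0.00). With PC3-L in place of the AI-labelled array 3 were lower and 1 higher, where 4.51% and 7.23% of 11113 genes were. CD81, a main partner, was 78.8 and 81.5 on PC3-H and LNCaP and 65.2 and 73.9 on PC3-L and the AI-labelled array. CD9, the other, was 70.6, 67.4, 117 and 51.4 on PC3-H, PC3-L, LNCaP and the AI-labelled array, and was lower by 2.26-fold in the LNCaP pair, while PC3-L against LNCaP gave a log2 difference of −0.79, within 2-fold.

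TSPAN1, TSPAN15 and TSPAN33 were the tetraspanins past 2-fold lower in both pairs. TSPAN15 was 229 on PC3-H, 40 on PC3-L, 118 on LNCaP and 33.5 on the AI-labelled array. TSPAN1 was 93.2, 24.8, 55.4 and 24.7, and TSPAN33 was 116, 48.5, 90.5 and 38.8. For all 3 the labels did not overlap, and with PC3-L against LNCaP the log2 differences were −1.54 for TSPAN15, −1.13 for TSPAN1 and −0.88, within 2-fold, for TSPAN33. TSPAN13 was lower in the LNCaP pair by 4.40-fold, and by 1.76-fold in the PC3 pair, with a log2 difference of −1.45 for PC3-L against LNCaP. CD151, a partner of laminin-binding integrins, was 2.61-fold higher in the LNCaP pair and unequal by 1.06-fold in the PC3 pair, and PC3-L against LNCaP gave 0.88 on the log2 scale, within 2-fold. TSPAN14 (4.48-fold) and TSPAN5 (2.22-fold) were past 2-fold higher in the PC3 pair, and 1.24-fold and 1.91-fold higher in the LNCaP pair. For both the labels did not overlap (gaps of 0.31 and 0.33 on the log2 scale). PC3-L against LNCaP gave log2 differences of 0.76 for TSPAN14 and 1.75 for TSPAN5.

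EEF1A2 differed by more than any other elongation or termination gene measured. It was chosen on these values, so this order is only a description. Of 25 listed elongation and termination genes 15 had a named probe, and 15 and 14 passed the filter in the PC3 and LNCaP pairs. In the PC3 pair 2 of 15 were 2-fold or more higher and 1 lower, or 13.3% and 6.67% beside 8.58% and 3.76% of all genes (median 0.04). In the LNCaP pair 0 of 14 were past 2-fold, beside 5.45% of all genes higher and 5.13% lower (median −0.14), and PC3-L in place of the AI-labelled array also gave 0. EEF1A1, the widespread isoform, was 76.6 on PC3-H, 111 on PC3-L, 99.5 on LNCaP and 89.2 on the AI-labelled array, with log2 differences of 0.53 and −0.16. EEF1A1 and EEF1A2 are close paralogs and EEF1A1 has many processed copies in the genome, so how far its probe measures that gene alone is uncertain. The EEF1A1 probe also read far below those of EEF1G and EEF2, and how well it reports the level of EEF1A1 was not tested. EEF1G, a subunit of the exchange complex, was between 1783 and 2149, and EEF2, which moves the ribosome along, was 3395, 3251, 5490 and 3660. METTL13, a methyltransferase of elongation factor 1A, was 2.20-fold lower in the PC3 pair (285 against 129) and 1.20-fold lower in the LNCaP pair. EEF1AKMT2, another such methyltransferase, was 2.68-fold and the ribosome rescue gene HBS1L 2.33-fold higher in the PC3 pair, and both were within 2-fold in the LNCaP pair (log2 differences −0.02 and −0.12).

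NUP210 likewise differed by more than any of the other nuclear pore genes measured, and it too was chosen on these values. Of 33 listed, 29 had a named probe and 28 passed the filter in each pair. In the PC3 pair 2 of 28 were past 2-fold higher and 0 lower (median 0.32), and 7.14% higher is near the 8.58% of all genes, of which 3.76% were lower. In the LNCaP pair 0 were higher and 1 lower (median −0.19), and 3.57% lower is likewise near the 5.13% of all genes, of which 5.45% were higher. The gene lower in the LNCaP pair was NUP93, an inner ring scaffold gene, at 271 against 570 on LNCaP, with a log2 difference of −1.14 for PC3-L against LNCaP. RANBP2, a gene of the cytoplasmic filaments, was 2.76-fold and NUP88, of the cytoplasmic face, 2.46-fold higher in the PC3 pair, with log2 differences of −0.02 and −0.71 in the LNCaP pair. NUP210L, the paralog of NUP210, was dim on every array, between 24.3 and 26.7.

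Of the other membrane nucleoporins, NDC1, POM121 and POM121C were lower on both low label arrays than on both high ones, by far smaller steps. For NUP210L, which did not pass the filter, the labels overlapped. NDC1 was 459 and 437 on PC3-H and LNCaP and 386 and 338 on PC3-L and the AI-labelled array. POM121 was 144 and 141 against 101 and 124, and its near-identical copy POM121C was 73.9 and 69.0 against 49.4 and 52.7; probes may not separate these copies. Over all 28 pore genes this order held for 7, and the opposite order for 3, beside the 20.6% and 20.5% of all genes given above.

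Nuclear transport receptors and Ran pathway genes were read beside the pore. Of 32 listed 26 had a named probe and 25 passed the filter; 5 were past 2-fold higher in the PC3 pair and 0 lower (median 0.34), beside 8.58% and 3.76% of all genes. In the LNCaP pair 1 of 25 was higher and 0 lower (median 0.10), and 4.00% is near the 5.45% of all genes that were higher, while 5.13% were lower. With PC3-L in place of the AI-labelled array 4 were higher, beside 7.23% of all genes. The importin KPNA3 was higher in both pairs, at 200 on PC3-H, 621 on PC3-L, 147 on LNCaP and 358 on the AI-labelled array, and PC3-L against LNCaP gave a log2 difference of 2.07. IPO8 (2.73-fold), IPO9 (2.29-fold) and the importin alpha exporter CSE1L (2.27-fold) had the next largest differences in the PC3 pair. None of the 25 went the way of NUP210 by 2-fold in these values, and 1 did so in the PC3 pair after quantile normalization.

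Of 27 genes listed for adherens junctions, AJAP1's relative and its sorting or binding partners, 10 had a named probe and passed the filter, and E-cadherin (CDH1), the catenins CTNNA1, CTNNB1 and CTNND1 and the sorting adaptor AP1M2 were among those without one. In each pair 1 of 10 was past 2-fold higher and 1 lower (medians −0.27 and −0.13), beside 8.58% higher and 3.76% lower of all genes in the PC3 pair and 5.45% and 5.13% in the LNCaP pair, so counts of 1 are near the shares of all genes. JUP, the junctional plaque protein plakoglobin, was lower in both: 320 on PC3-H, 54.9 on PC3-L, 375 on LNCaP and 59.4 on the AI-labelled array, or 5.75-fold and 6.23-fold. NECTIN3, an immunoglobulin-like adhesion molecule of these junctions, was higher in both, with 94.5, 229, 49.2 and 214, or 2.41-fold and 4.28-fold. Both kept the labels apart by more than 2-fold (gaps of −2.41 and 1.17 on the log2 scale), and PC3-L against LNCaP gave −2.75 and 2.20. PIANP, the closest relative of AJAP1, was between 35.2 and 44.2, and BSG, a membrane protein that AJAP1 binds, was between 689 and 896.

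**Figure D3:**
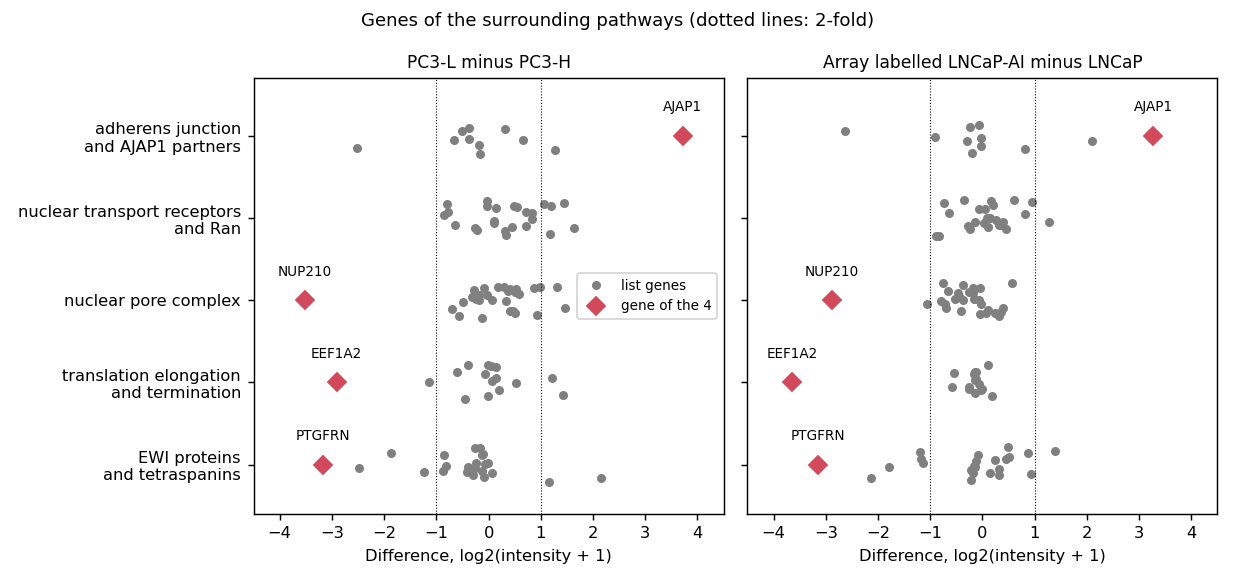
Difference in log2(intensity + 1) of each list gene past the filter on any array (grey points, spread vertically for visibility) in the PC3 pair (left) and the LNCaP pair (right), with the gene of the 4 that belongs beside each list as a red diamond and dotted lines at 2-fold; no gene of the 4 belongs to the transport receptor list. The 4 genes were chosen on these values, so their place beside the lists is only a description. NUP210 (−3.52 and −2.89) and EEF1A2 (−2.91 and −3.64) lie outside the points of their lists. So do PTGFRN, whose list reaches −2.49 with TSPAN15 and −2.14 with TSPAN13, and AJAP1, whose list reaches 1.27 and 2.10 with NECTIN3. JUP of the AJAP1 list lies the other way, at −2.52 and −2.64.

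The low against high label comparison over all 4 arrays was fitted for the list genes with limma, with the line as covariate and 1 residual degree of freedom. The line was taken from the labels, so the AI-labelled array counted as LNCaP despite its LNCaP marker sum of 251, against 4020 for LNCaP. The fit therefore cannot show that a difference is shared by both lines. None of 11509 genes was called at a Benjamini-Hochberg adjusted p under 0.05 in either direction (0% higher and 0% lower), and 1014 had an unadjusted p under 0.05. Among the list genes JUP had the smallest adjusted p (0.193; log2 difference −2.58), followed by TSPAN15 (0.234; −2.14), KPNA3 (0.267; 1.45) and NECTIN3 (0.28; 1.68) in the limma fit, each with both low label arrays on the same side of both high ones. When limma's prior variance followed the intensity, 66 genes were called higher and 49 lower, and TSPAN1 (adjusted p 0.0336), TSPAN15 (0.0324) and JUP (0.0399) were the list genes among them. The 4 genes themselves are given no p, since the same contrast chose them.

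The chromosomal neighbours differed by smaller steps than the 4 genes, which were chosen on their values, and some went in the direction of their gene. In the RefSeq gene order the 3 nearest genes with a named probe on each side were read for each gene, 24 in all, of which 20 passed the filter. Of these 20, 6 kept the labels apart in the order of their gene and 3 in the opposite order, beside the 20.6% and 20.5% of all genes given above, and for 11 the labels overlapped. For PTGFRN on chromosome 1 these were MAB21L3, CD58, CD2, CD101, TRIM45 and VTCN1, with differences between −0.41 and 0.37 in the PC3 pair and between −0.60 and 1.04 in the LNCaP pair. CD58, an adhesion molecule that binds CD2 on T cells, was higher by 1.04 on the log2 scale in the LNCaP pair, against the direction of PTGFRN. With PC3-L against LNCaP it was 0.73, within 2-fold. It was the only 1 of the 20 past 2-fold, while 5.45% of all genes were higher in the LNCaP pair, 5.13% lower, and 8.58% and 3.76% in the PC3 pair. MAB21L3 was lower on both low label arrays, as PTGFRN was, with log2 differences of −0.41 and −0.60. For EEF1A2 on chromosome 20 the neighbours were FLJ16779, ARFGAP1, MIR4326, PPDPF, PTK6 and SRMS. They lay between −0.82 (PTK6, a kinase of epithelial cells) and 0.60 in the PC3 pair and between −0.08 and 0.68 in the LNCaP pair. MIR4326 (0.60 and 0.68) and ARFGAP1 (0.16 and 0.55) kept the labels apart in the order opposite to EEF1A2. PTK6 and SRMS had the order of EEF1A2, with gaps of −0.08 and −0.03.

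NUP210 on chromosome 3 had CAND2, RPL32, IQSEC1, HDAC11, FBLN2 and TPRXL as neighbours, with differences between −0.95 and 0.00 in the PC3 pair and between −0.94 and 0.11 in the LNCaP pair. Its nearest neighbour on one side, IQSEC1, an exchange factor for Arf GTPases, was 197 and 166 on PC3-H and LNCaP and 102 and 119 on PC3-L and the AI-labelled array, in the order of NUP210. RPL32, a ribosomal protein gene, had the same order, with 68.0 and 87.4 against 59.6 and 45.1. HDAC11, on the other side, was between 64.2 and 68.3. AJAP1 on chromosome 1 had C1orf174, LINC01134, LINC01346, MIR4689, NPHP4 and CHD5 beside it, between −0.51 and 0.28 in the PC3 pair and between −0.10 and 0.15 in the LNCaP pair.

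**Figure D4:**
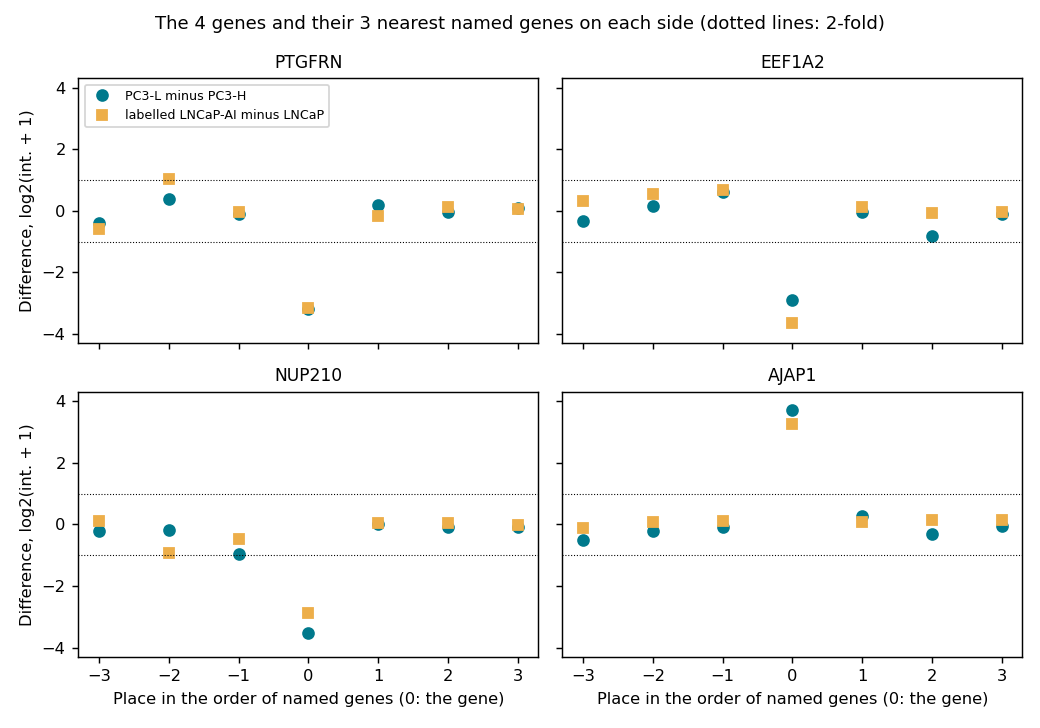
Difference in log2(intensity + 1) for each of the 4 genes (place 0) and its 3 nearest genes with a named probe on each side in chromosome order, with circles for PC3-L minus PC3-H, squares for the AI-labelled array minus LNCaP, and dotted lines at 2-fold. The neighbours lie between −0.95 and 1.04, and the 4 genes at −3.64 to −2.89 or at 3.27 and 3.72.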

How the data were processed

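Each of 4 cultures gave 1 array, biotin-labelled with an Affymetrix whole-transcript kit per the labels' protocols. The deposited table holds intensity on a linear scale. GeneSpring GX 12.6 stands in the series' design text; the authors' probe summary, background correction and normalization are not given in the sources used. Of 37934 probes 14952 had 1 gene symbol in the platform annotation, and all 14952 matched the RefSeq table (GRCh38.p14) by Entrez identifier. The probe with the highest mean stood for each of 14006 genes, 583 of which had more than 1.

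Intensities were taken to log2 after adding 1. A gene passed a pair's filter if either value was at or above the 40th percentile of the probes on its array; past 2-fold means a log2 difference of at least 1 in size. With 1 array per group no test was made for a pair, and the number of arrays limits the precision. Low against high label was fitted with limma 3.58.1 (R 4.3.3; two-sided, Benjamini-Hochberg) and tested on simulated data; other steps used Python 3.11.15. The members and gene lists were chosen with earlier results of these data known. Named were the 4 genes, the 3 of most similar pattern each (leaving out small RNAs, unnamed reading frames and genes of the Y chromosome), the 3 named neighbours on each side, close relatives, line markers, and list genes past 2-fold in both pairs with up to 3 others per pair; other list genes were picked for their role after their values were seen.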

Additional observations from a re-analysis of the deposited data

How the results depend on the processing

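With a pseudocount of 16, median centring or quantile normalization the 4 genes kept their direction in both pairs and stayed within 1.5-fold of their difference. The mean over probes changes nothing for genes with 1 probe. With PC3-L in place of the AI-labelled array the differences also stayed within 1.5-fold, and the rule that chose the genes fixes their direction there. A pseudocount cannot change a direction either. As the genes were chosen on these values, their kept directions are no independent check. With the PC3 pair turned round, as the free-text descriptions have it, the differences reverse by construction: 3.18 for PTGFRN, 2.91 for EEF1A2, 3.52 for NUP210 and −3.72 for AJAP1. Genes separated by 2-fold then numbered 13 below and 9 above, against 97 and 163; with a 1.5-fold margin they were 239 and 406. Without the AI-labelled array, an alternative chosen after seeing the data, 430 were above, where fewer arrays have to be separated. With an intensity trend limma called 66 genes higher and 49 lower, against 0 and 0; the cause was not tested. For NUP210, EEF1A2, PTGFRN and AJAP1 the 3 genes nearest by distance and the 3 most correlated shared 0 members. Of the list counts 1 moved under quantile normalization (transport receptors lower in the PC3 pair, 1 against 0) and 2 with a pseudocount of 16 (EWI proteins and tetraspanins, 1 higher in the PC3 pair and 2 lower in the LNCaP pair, against 2 and 5). With PC3-L in place of the AI-labelled array 3 list counts moved, among them adherens junction genes lower (2 against 1). Leaving out any 1 array leaves the limma fit with the line covariate no residual degree of freedom. Dim levels of PTGFRN, NUP210 and AJAP1 limit their ratios.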
